A study of Mus musculus with 7 samples.

Results

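Genes of glycerolipid acylation, triglyceride synthesis and triglyceride breakdown were followed in primary mouse oligodendroglia lacking the transcription factor KLF13. The group consists of 10 genes that were chosen by name for the roles of their enzymes, namely Gpam, Agpat3, Agpat4, Lpin1, Lpin2, Dgat1, Dgat2, Mboat1, Mboat2 and Pnpla2. All 10 were found by symbol among the 49315 genes of the count data, and all 10 had enough counts to be tested. RNA-seq was carried out on cells that had differentiated for 6 days, with 4 wildtype control libraries and 3 libraries of Klf13 knockouts. The knockout was constitutive and thus present in every cell type of the mouse, not only in oligodendroglia. Cultures were prepared from the brains of newborn mice of both sexes. Oligodendrocyte precursor cells (OPCs) were shaken off mixed glia, depleted of microglia, and kept in a medium with thyroid hormones instead of growth factors. All cultures thus shared the hormone treatment. The strain and the number of pups per culture are not given in the sources used here. The libraries are labelled biological replicates, and p-values measure the spread between them.

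Glycerolipids are built on glycerol 3-phosphate. GPAM attaches the first fatty acid, enzymes of the AGPAT family attach the second and give phosphatidic acid, and lipins remove the phosphate to give diacylglycerol. Diacylglycerol is then either used for phospholipids such as phosphatidylethanolamine, which myelin is rich in, or converted by DGAT1 or DGAT2 to triglyceride, the store in lipid droplets. MBOAT1 and MBOAT2 return fatty acids to lysophospholipids, and PNPLA2 starts the breakdown of triglyceride.

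The 10 genes did not move as a block. Dgat2, Agpat4, Lpin1 and Mboat1 were lower in the knockout libraries, Gpam and Dgat1 were higher, and Agpat3, Lpin2, Mboat2 and Pnpla2 did not pass the test. Thus 4 of 10 genes fell, beside 12.2% of all 18352 genes tested, and 2 of 10 rose, beside 11.6%. Under a block for the replicate number, 4 fell and 1 rose. With other settings or single libraries left out, 3 to 4 fell and 1 to 2 rose. The 10 genes were chosen with earlier results of these data known, so that these shares only describe them. Dgat2 alone fell by at least 1 on the log2 scale, as 3.08% of all genes did, and none of the 10 rose by as much, beside 3.97%. Control and knockout libraries did not overlap for 7 of the 10, beside 36.2% of all genes. The median log2 fold change of the 10 was -0.07, beside -0.0037 for all genes. Tests of single genes are edgeR's quasi-likelihood test over all genes, with p-values adjusted by the Benjamini-Hochberg method and a threshold of 0.05, and log2 fold changes are knockout against control. Dgat2 and Mboat1 are among the lipid synthesis genes that the study displayed from these same samples, so that their direction is no independent evidence. For Mboat1, the study also reported transiently lower transcript levels by qRT-PCR in spinal cord of KLF13-deficient mice. Between 24507471 and 59596479 counts fell on genes per library, and 6.03% to 18.0% of them on Gm42418, Gm23935 and Lars2, which collect ribosomal RNA reads. Control replicate 3 had the highest microglia marker sum of all libraries. Control replicates 3 and 4 had summed fibroblast and mural marker counts of 41267 and 31243, against 6217 and 9623 in the other 2 controls, and control replicate 4 had the lowest astrocyte and neuron sums, at 82739 and 5634. The check of the knockout was clear, as Klf13 (chr7:63886351-63938915 in GRCm38) had normalised read counts of 10669.9 to 11999.5 in the controls and of 801.6 to 961.2 in the knockouts, 7.76% of the control mean.

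KLF13 is a zinc finger protein of the BTEB subgroup, which binds GC-rich and CACCC-type letters. The 250 bases in front of transcription starts were therefore searched on both strands for the hexamers ACNCCC as well as CCNCCC, in which N stands for any base but C, with overlapping matches counted. RefSeq starts were at hand for 8 of the 10 genes, with 11 windows, but not for Dgat1 and Dgat2. Of these windows, 10 of 11 held at least 1 match, as did 72.6% of 32851 mouse promoters of the same length, and 33.0% of all promoters held at least 3. At least 3 were held by the windows of Mboat1, Mboat2, Agpat4 and Lpin1, and by 1 window each of Lpin2 and Gpam. Shown as examples are the windows of Mboat1, which fell, Mboat2, which did not pass the test, and Gpam, which rose. They start close to the counted genes and cover all 3 outcomes. Mboat2 and Mboat1 had the most matches of the 11 windows. The window of Pnpla2, which did not pass the test either and also starts close to the counted gene, had 2. The windows shown are given 5′ to 3′ on the strand of the gene (RefSeq, GRCm38.p6), with the matches in capitals. Mboat1 is chr13:30136240-30136489 on the plus strand with 6 matches, Mboat2 is chr12:24831349-24831598 on the plus strand with 10, and Gpam is chr19:55099478-55099727 on the minus strand with 2.
Mboat1: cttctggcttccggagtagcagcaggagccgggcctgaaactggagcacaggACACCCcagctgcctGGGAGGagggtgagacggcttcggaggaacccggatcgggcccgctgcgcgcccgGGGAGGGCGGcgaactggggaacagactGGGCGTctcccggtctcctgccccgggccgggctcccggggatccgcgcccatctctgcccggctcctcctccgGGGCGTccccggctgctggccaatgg
Mboat2: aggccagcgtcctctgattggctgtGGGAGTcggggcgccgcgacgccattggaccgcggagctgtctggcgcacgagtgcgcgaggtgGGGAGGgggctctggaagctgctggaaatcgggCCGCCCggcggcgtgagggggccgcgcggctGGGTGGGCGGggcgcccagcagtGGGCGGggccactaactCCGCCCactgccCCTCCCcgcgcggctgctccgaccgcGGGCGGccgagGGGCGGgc
Gpam: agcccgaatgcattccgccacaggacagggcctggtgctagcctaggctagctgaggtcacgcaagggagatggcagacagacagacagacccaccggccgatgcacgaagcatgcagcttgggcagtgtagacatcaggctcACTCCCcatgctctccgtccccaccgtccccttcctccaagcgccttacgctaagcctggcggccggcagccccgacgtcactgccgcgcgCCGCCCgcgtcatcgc
A second Gpam window, at chr19:55127239-55127488, held 5 matches. A match is a description of letters and no binding site, and binding was not measured in the data used here.

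Gpam, the mitochondrial enzyme of the first acylation step, was higher in the knockout. Its normalised read counts, which are counts per library scaled to a common library size, were 4043, 4066, 3662 and 3283 in the controls (replicates 1 to 4). The knockouts (replicates 1 to 3) had 5088, 5267 and 5634. Every knockout library lay above every control library. The mean rose from 3763 ± 370.2 (SD, n = 4) to 5329.6 ± 279 (SD, n = 3), with a log2 fold change of 0.50 (SE 0.086) and an adjusted p of 0.00709. The gene lies at chr19:55069734-55099451. Of the 3 other glycerol 3-phosphate acyltransferases, Gpat3, a low-abundance enzyme of the endoplasmic reticulum, passed the test with 42.9 ± 4.58 normalised counts in the controls and 68.5 ± 1.74 in the knockouts (adjusted p = 0.0273). Its call depended on single libraries, with adjusted p-values of 0.054, 0.0531 and 0.0509 without control replicates 1, 2 and 4, and of 0.0793, 0.0854 and 0.0672 without knockout replicates 1, 2 and 3. Fitting the replicate number as a block gave an adjusted p of 0.104. Gpat2, at 17.1 to 60.2 normalised counts, and Gpat4 did not pass. Of the 4 genes, 2 were thus higher and none was lower, beside 11.6% and 12.2% of all genes. Gpat4, the main reticular enzyme of this step in many tissues, had a log2 fold change of 0.03 (adjusted p = 0.687), and Gpat2 one of 0.76 (adjusted p = 0.193).

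The second acylation step showed a different picture for its members. Agpat4, which makes phosphatidic acid from lysophosphatidic acid and is well expressed in brain, had normalised counts of 5591, 6277, 6181.5 and 6509 in the controls and of 3676, 3847 and 3311 in the knockouts. The groups were well apart. The mean fell to 58.8% of the control, from 6139.6 ± 391 (SD, n = 4) to 3611 ± 274 (SD, n = 3), with a log2 fold change of -0.77 (SE 0.076, adjusted p = 0.000835). Agpat3, another enzyme of the same reaction, had 13678, 14732, 14006 and 11785 normalised counts in the controls, against 13591, 16197 and 14239 in the knockouts. These groups overlapped, and the 95% confidence interval of the log2 fold change, 0.12, included 0 and ran from -0.11 to 0.34 (adjusted p = 0.434). Without knockout replicate 2, the highest library, the log2 fold change was 0.039. Agpat4 lies at chr17:12118704-12219645 and Agpat3 at chr10:78269178-78352489. Among the 3 other AGPAT genes, Agpat5 was lower (log2 fold change -0.23, adjusted p = 0.0248), while Agpat1 and Agpat2 did not pass. The call of Agpat5 was lost without control replicate 4 (adjusted p = 0.0568), without knockout replicates 1, 2 and 3 (0.127, 0.0536 and 0.104) and with the replicate block (0.0592). Of the 5 AGPAT genes, 2 were lower and none was higher, beside 12.2% and 11.6% of all genes, with a median log2 fold change of -0.23.

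Of the lipins, which turn phosphatidic acid into diacylglycerol, Lpin1 was lower and Lpin2 was not. Lpin1 (chr12:16535669-16589770) had normalised counts of 3544, 3140.3, 3692 and 3875 in the controls and of 2632, 2243 and 2536 in the knockouts. Every knockout library was below the lowest control. Its mean fell to 69.3% of the control, with a log2 fold change of -0.53 (SE 0.09, adjusted p = 0.00696). Lpin2 (chr17:71182560-71249817) had 2090.1, 2019, 3110.2 and 2187 in the controls, against 2147, 2228.5 and 2755 in the knockouts. The libraries of both groups were interleaved, with control replicate 3 the highest and knockout replicate 3 second. The log2 fold change of 0.016 had a 95% confidence interval from -0.38 to 0.41 and turned its sign under some settings. Without control replicate 3 it was 0.18. The 7 microglia markers moved with these libraries, as their summed normalised counts were 57768 in control replicate 3 and 24441 in knockout replicate 3, against 11154 to 14702 in the other 5 libraries. Their part in the Lpin2 values was not tested. Ctdnep1 and Cnep1r1, which form the phosphatase that activates lipins, had log2 fold changes of 0.08 (adjusted p = 0.359) and -0.014 (adjusted p = 0.92), and that of Cnep1r1 was above 0 under 2 other scalings. Among the 4 other phosphatidate phosphatases, Plpp2, a lipid phosphatase of the plasma membrane, was lower (510.0 ± 44.6 against 344.2 ± 36.8 normalised counts, adjusted p = 0.0127), although not without knockout replicate 2 (adjusted p = 0.0506). Lpin3, Plpp1 and Plpp3 did not pass.

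The last step of triglyceride synthesis held the steepest fall of the 10 genes. Dgat2, which works at the reticulum and the surface of lipid droplets, had normalised counts of 14991, 15139, 16492 and 20858 in the controls and of 6171, 5648 and 6302 in the knockouts. Even the highest knockout library had fewer counts than the lowest control by a wide margin. The mean fell to 35.8% of the control, from 16869.8 ± 2743 (SD, n = 4) to 6040.5 ± 346 (SD, n = 3). This was a log2 fold change of -1.48 (SE 0.13), with 95% limits of -1.78 and -1.18 and an adjusted p of 0.000412. Control replicate 4 was the highest library, and without it the log2 fold change was -1.34. The part of the marker sums of this library in its Dgat2 value was not tested.

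Dgat1, an unrelated protein of the reticulum that catalyses the same reaction, was higher in the knockout by a small margin. It had 507.7, 535.0, 612.7 and 425.0 normalised counts in the controls, against 707.7, 716.2 and 658.0 in the knockouts, without overlap. The mean rose from 520.1 ± 77.4 (SD, n = 4) to 694.0 ± 31.4 (SD, n = 3), with a log2 fold change of 0.42 (SE 0.13) and an adjusted p of 0.0497. This call stood at the threshold. It was lost when any one of 6 libraries was left out, with adjusted p-values of 0.0818, 0.084 and 0.0577 without control replicates 1, 2 and 4 and of 0.117, 0.14 and 0.0779 without knockout replicates 1, 2 and 3, and under the replicate block (log2 fold change 0.33, adjusted p = 0.0985). Dgat2 lies at chr7:99153658-99182719, which is 35.3 Mb from Klf13 on the same chromosome, and Dgat1 at chr15:76502015-76511951. The monoacylglycerol acyltransferases Mogat1 and Mogat2 had too few counts to be tested.

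The lysophospholipid acyltransferase Mboat1 (chr13:30136498-30246717) had normalised counts of 149.9, 204.1, 209.2 and 157.3 in the controls and of 115.5, 103.8 and 131.0 in the knockouts. It was the least abundant of the 10, and its groups did not overlap. Its log2 fold change was -0.63 (SE 0.18, 95% confidence interval from -1.04 to -0.21, adjusted p = 0.0415). The call was lost without control replicates 2, 3 and 4 (adjusted p = 0.0904, 0.0771 and 0.0552) and without knockout replicates 1, 2 and 3 (0.121, 0.138 and 0.0615). Mboat2 (chr12:24831599-24960301), its close relative, had 4082, 3637, 3023 and 4117 in the controls, against 4100.2, 3602 and 3801 in the knockouts. The groups overlapped, and the fitted log2 difference of 0.05 had a 95% confidence interval from -0.22 to 0.31. Of the 7 other lysophospholipid acyltransferases, Lpcat4 (log2 fold change -0.56, adjusted p = 0.0143) and Lclat1, which works on cardiolipin and other lysophospholipids (log2 fold change -0.49, adjusted p = 0.0114), were lower. Both calls were lost without knockout replicate 1, with adjusted p-values of 0.0585 and 0.0544. Of the 9 genes, 3 were lower, beside 12.2% of all genes, and none was higher, beside 11.6%, with a median of -0.27.

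Pnpla2, the lipase that cuts the first fatty acid off triglyceride, did not pass the test. Its normalised counts were 1835, 1854, 2031 and 1755 in the controls, against 1612, 1698.5 and 1719 in the knockouts, so that the groups did not overlap but lay close together. Its log2 fold change of -0.16 reached from -0.31 to -0.002 in the 95% confidence interval (adjusted p = 0.134). The gene lies at chr7:141455198-141460743, 77.5 Mb from Klf13. Larger differences were found for transcripts of the proteins that control this lipase. Abhd5, its coactivator, had normalised counts of 2269.7, 2365, 2492 and 2773 in the controls and of 1616, 1498.5 and 1545 in the knockouts. Its log2 fold change was -0.67 (SE 0.08, adjusted p = 0.00179). G0s2, its inhibitor, had 437.5, 479.6, 454.9 and 533.5 in the controls, against 747.5, 677.8 and 654.2 in the knockouts, with a log2 fold change of 0.54 (SE 0.098, adjusted p = 0.00889). Transcript counts of coactivator and inhibitor thus differed between the groups in opposite directions, and the groups overlapped for neither.

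Of the other lipolysis genes, Pnpla3, a relative of Pnpla2 on lipid droplets, fell by 1.27 on the log2 scale (adjusted p = 0.0166). Its control counts were 1578, 1402, 1351 and 2788, with replicate 4 far above the others, and its call was lost without knockout replicates 2 and 3 (adjusted p = 0.0711 and 0.0622). Ddhd2, a triglyceride lipase of the brain that was singled out after its values were seen, had a log2 fold change of -0.53 (adjusted p = 0.0033). Lipe and Mgll, which release the second and the last fatty acid, did not pass, with log2 fold changes of 0.009 (95% confidence interval from -0.28 to 0.30) and -0.21 (adjusted p = 0.114). That of Mgll ran from -0.30 without knockout replicate 2 to -0.13 without knockout replicate 3. In all, 3 of the 8 lipolysis genes were lower, beside 12.2% of all genes, 1 was higher, a share near the 11.6% of all genes, and 4 did not pass.

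**Figure D1:**
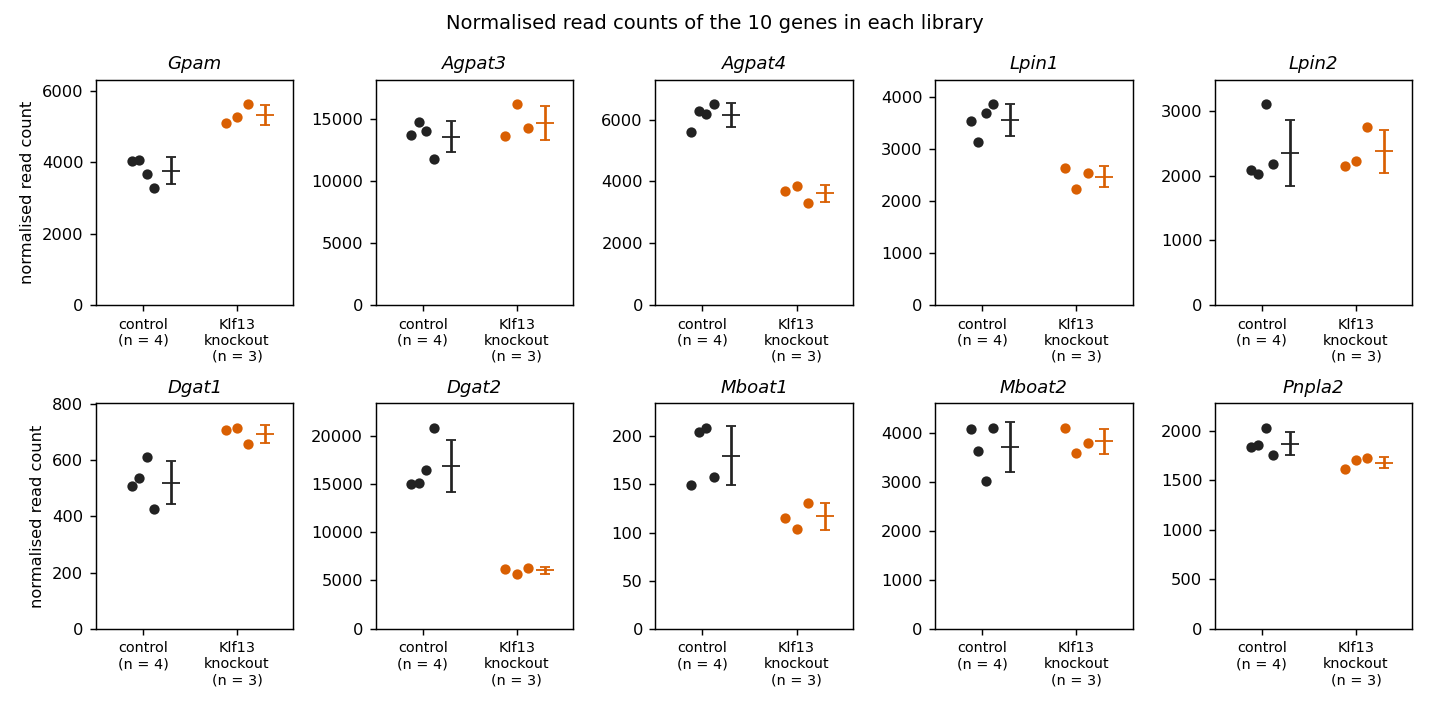
Normalised read counts of the 10 genes (vertical axes, each from 0), with 1 point per library and the mean with its SD beside the points, for 4 control (black) and 3 Klf13 knockout libraries (orange). Points of both groups are separate for 7 genes and interleaved for Agpat3, Lpin2 and Mboat2, and control replicate 3 stands above the rest for Lpin2.

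**Figure D2:**
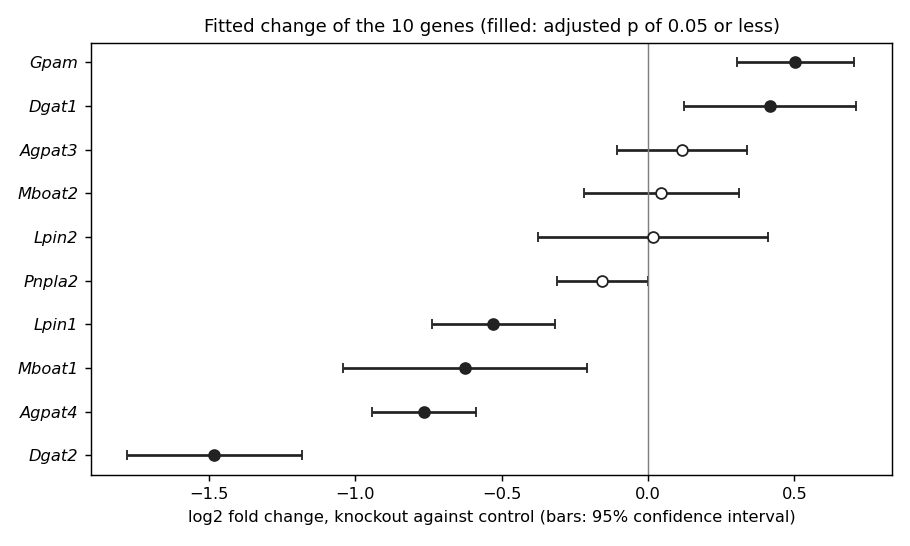
Fitted log2 fold change of the 10 genes, knockout against control (horizontal axis), with 95% confidence intervals as bars and filled points for an adjusted p of 0.05 or less. The values run from 0.50 for Gpam to -1.48 for Dgat2, and the interval of Lpin2 is wide and centred near 0.

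To compare genes with each other, counts were divided by the exon length of the gene and are given as scaled CPM per kilobase of exon. On this scale Dgat2 was the most abundant of the 10 in the controls at 124.5 ± 20.2 (SD, n = 4), followed by Agpat4 at 51.7 ± 3.29, Agpat3 at 40.7 ± 3.77, Mboat2 at 30.2 ± 4.14 and Gpam at 22.3 ± 2.20. Lpin1 and Pnpla2 stood at 14.2 ± 1.24 and 14.1 ± 0.877 and could not be ordered, and neither could Lpin2 at 4.37 ± 0.949 and Dgat1 at 3.88 ± 0.577. Mboat1 was last at 1.18 ± 0.202. The other neighbours in this order did not overlap.

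In the knockouts the lead of Dgat2 was gone. Its level of 44.6 ± 2.55 (SD, n = 3) overlapped that of Agpat3 at 44.1 ± 4.07. Gpam at 31.6 ± 1.66, Mboat2 at 31.1 ± 2.04 and Agpat4 at 30.4 ± 2.31 followed with overlapping neighbours. Pnpla2 had 12.6 ± 0.427, Lpin1 9.82 ± 0.806, Dgat1 5.17 ± 0.234, Lpin2 4.42 ± 0.614 and Mboat1 0.765 ± 0.0894, with overlap between Dgat1 and Lpin2 only among these. Dgat2 made up 40.4% ± 3.99 of the summed level of the 10 genes in the controls and 20.8% ± 1.21 in the knockouts. The sum itself was 307 ± 18.5 in the controls and 214.7 ± 1.05 in the knockouts, and without Dgat2 it was 182.6 ± 2.66 and 170.1 ± 2.95. Most of the difference in the sum was thus that of a single gene.

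**Figure D3:**
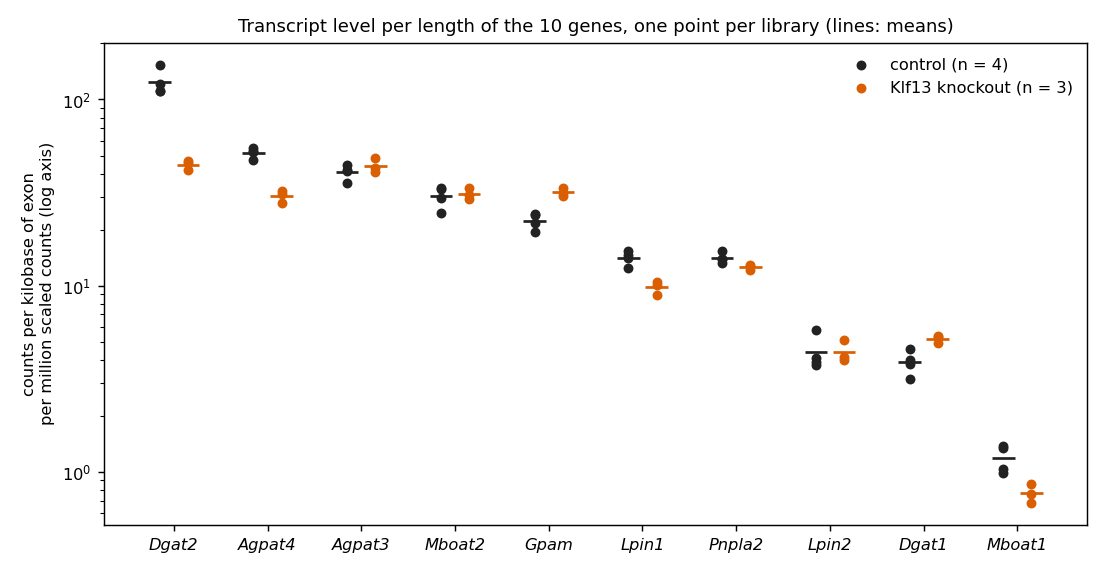
Level of each of the 10 genes as scaled CPM per kilobase of exon (vertical log axis), with 1 point per library for 4 control (black) and 3 Klf13 knockout libraries (orange) and lines at the means. Genes are ordered by their control mean, from Dgat2 at 124.5 to Mboat1 at 1.18, and the Dgat2 points of the knockouts sit at the height of Agpat3.

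The 4 pairs of related enzymes were also compared within each library, as such a ratio does not depend on how libraries are scaled. The Dgat2 to Dgat1 ratio was 29.2, 28.0, 26.6 and 48.6 in the controls, against 8.63, 7.81 and 9.48 in the knockouts. Its geometric mean was 32.1 in the controls and 8.61 in the knockouts, a difference of -1.90 on the log2 scale. For Agpat4 to Agpat3 the ratio was 1.15, 1.20, 1.24 and 1.55 in the controls, against 0.759, 0.666 and 0.652 in the knockouts. Per kilobase of exon, Agpat4 was therefore the more abundant of the pair in every control and the less abundant in every knockout library. This order rests on the counted exon lengths, 2701 bases for Agpat4 and 7577 for Agpat3. Before division by length, Agpat3 had more counts than Agpat4 in every library. The log2 difference of this pair was -0.88. The ratio of Mboat1 to Mboat2 had geometric means of 0.0391 and 0.0246, with a log2 difference of -0.67. These 3 ratios did not overlap between the groups. A two-sided exact permutation test with 35 arrangements gave p = 0.0571 for each of them, which is the smallest p that 4 against 3 libraries allow, and 0.0762 after adjustment over the 4 pairs. The Lpin1 to Lpin2 ratio was 3.62, 3.32, 2.54 and 3.79 in the controls, against 2.62, 2.15 and 1.97 in the knockouts, where control replicate 3 fell below knockout replicate 1 (log2 difference -0.56, exact permutation p = 0.114, adjusted p = 0.114). Without control replicate 3 the groups of this pair did not overlap, and the log2 difference was -0.68.

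**Figure D4:**
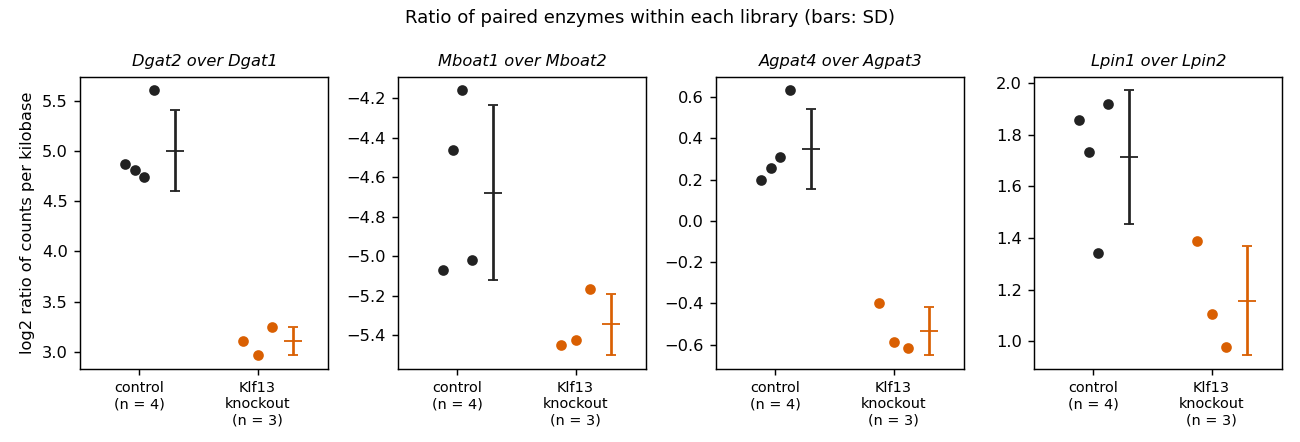
Log2 ratio of counts per kilobase for 4 pairs of related enzymes (vertical axes), with 1 point per library and the mean with its SD beside the points, for 4 control (black) and 3 Klf13 knockout libraries (orange). The groups are apart for the pairs of Dgat2, Mboat1 and Agpat4, and overlap for Lpin1 over Lpin2.

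The remaining genes of the pathway were read from 11 lists with 83 genes, of which 79 could be tested. Of these 79, 19 were lower, 8 were higher and 52 did not pass. Without the 10 genes the counts were 15 lower, 6 higher and 48 not passed among 69 genes, or 21.7% and 8.70% beside 12.2% and 11.6% of all genes. The median log2 fold change over the 79 was -0.076. The lists were also chosen with earlier results of these data known, so that these shares only describe them.

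The supply of building blocks held the lowest value of all lists. Gpd1, the cytosolic enzyme that makes glycerol 3-phosphate from a product of glycolysis and is a known gene of oligodendrocytes, had normalised counts of 10909.7, 16678, 17048 and 13998.5 in the controls and of 2537, 3096 and 2259 in the knockouts. The groups were far apart, and knockout libraries held on average 17.9% of the control value. The log2 fold change was -2.48 (SE 0.19, adjusted p = 0.000262). Gpd1l and Gk, the other genes of this supply, did not pass. Among 5 acyl-CoA synthetases, which activate fatty acids for acylation, Acsl1 was lower with 4081 ± 351 normalised counts in the controls and 2255 ± 134 in the knockouts (log2 fold change -0.86, adjusted p = 0.000697). Acsl4, which prefers arachidonic acid, was lower with a log2 fold change of -0.32 (adjusted p = 0.0413). Acsl6, a brain form, was higher with 3018 ± 538 and 4628 ± 703 (log2 fold change 0.62, adjusted p = 0.0274). The call of Acsl6 was lost without control replicate 4 (adjusted p = 0.0551) and knockout replicate 2 (0.096). That of Acsl4 was lost without control replicates 1, 3 and 4 (0.0843, 0.0523 and 0.0607) and knockout replicates 1, 2 and 3 (0.098, 0.133 and 0.133).

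In the phospholipid branch, 4 of 15 genes were lower, beside 12.2% of all genes, 1 was higher, a share below the 11.6% of all genes, and 10 did not pass. Pcyt2, which controls the rate of phosphatidylethanolamine synthesis, had 4649.5 ± 787 normalised counts in the controls and 2237 ± 348 in the knockouts (log2 fold change -1.06, adjusted p = 0.00455). Etnk1, the kinase of the preceding step, had a log2 fold change of -0.55 (adjusted p = 0.00432). The other 2 lower genes were singled out after their values were seen. They were Selenoi, which joins the ethanolamine group to diacylglycerol (log2 fold change -0.27, adjusted p = 0.00691), and Pcyt1a, the counterpart of Pcyt2 for choline (log2 fold change -0.35, adjusted p = 0.00442). Ptdss2, a phosphatidylserine synthase, was higher (log2 fold change 0.25, adjusted p = 0.0308), although not without control replicate 3 (adjusted p = 0.0588) or knockout replicates 1 and 2 (0.0745 and 0.104).

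Of 9 tested lipid droplet genes, 1 was higher and 1 was lower, shares near the 11.6% and 12.2% of all genes. Cideb, a droplet fusion protein, was higher (17.5 and 36.8 normalised counts, log2 fold change 1.07, adjusted p = 0.00997, and 0.0683 with the replicate block). Fitm2, a protein of droplet budding, was lower (log2 fold change -0.28, adjusted p = 0.024). The call of Fitm2 was lost without control replicates 1, 2 and 4 (adjusted p = 0.0687, 0.0578 and 0.0632), without knockout replicates 1 and 3 (0.106 and 0.083) and with the replicate block (0.0552). The other 7 did not pass. Plin2, a coat protein of lipid droplets that was singled out after its values were seen, had 4412.5, 3448, 10603 and 3876 normalised counts in the controls, against 3892.5, 4656 and 7072 in the knockouts, so that its highest values were in the same libraries as those of the microglia markers. Its log2 fold change was -0.10 (adjusted p = 0.895) and 0.41 without control replicate 3. Of 13 regulators of lipid genes, Ppargc1a, a coactivator of mitochondrial genes, was higher (log2 fold change 0.79, adjusted p = 0.0244), although not without knockout replicates 1, 2 and 3 (adjusted p = 0.0586, 0.0705 and 0.0612). The other 12 regulators, among them Srebf1, the master regulator of fatty acid synthesis genes, did not pass, so that 1 of 13 was higher, a share near the 11.6% of all genes, and none was lower, beside 12.2%.

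**Figure D5:**
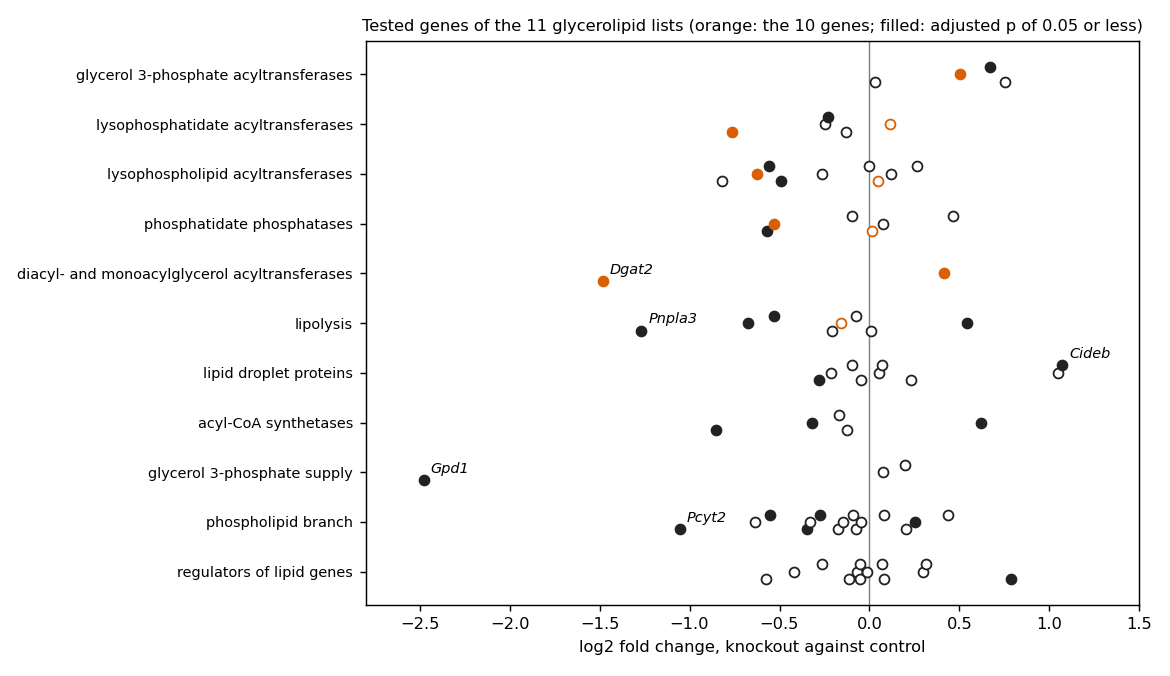
Log2 fold change, knockout against control (horizontal axis), of the tested genes of the 11 glycerolipid lists (vertical axis), with the 10 genes in orange and filled points for an adjusted p of 0.05 or less. The 5 labelled genes, Gpd1, Dgat2, Pnpla3, Pcyt2 and Cideb, passed the test and lie at least 1 log2 unit from 0, and open points gather around 0.

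Markers of cell types differed between the groups as well, and their counts stand beside 12.2% of all genes lower and 11.6% higher. The 3 lineage markers Olig1, Olig2 and Sox10 did not pass, with summed normalised counts of 82918 to 101207 in the controls and of 72715 to 96031 in the knockouts. All 6 markers of differentiated oligodendrocytes were lower, with sums of 984514 to 1165577 and of 267632 to 303020 and a median log2 fold change of -2.51. All 6 astrocyte markers were higher, with sums of 82739 to 122235 and of 175294 to 209596, and so were all 8 neuron markers, with sums of 5634 to 9348 and of 15573 to 23152. Of 3 OPC markers, 1 was higher, with sums of 63495 to 73638 and of 75923 to 84069. None of the 7 microglia markers passed. Of 6 fibroblast and mural markers, 1 passed the test as lower, with sums of 6217 to 41267 and of 2143 to 6583. The log2 fold change was below 0 for 5 of these 6, with a median of -2.07, and Col1a1, Col1a2 and Lum had adjusted p-values of 0.0565, 0.0546 and 0.0567. Of 3 tested endothelial markers, 1 was lower. Markers of adipocytes, cells that depend on many of these enzymes, summed to at most 25.4 normalised counts in any library, and 3 of these 4 genes had too few counts to be tested. No marker was at 0 in every library. The part of these cell types in the values of the 10 genes was not tested. In RNA from whole cultures, fewer cells of a type and less RNA per cell cannot be told apart.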

How the data were processed

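RNA was sequenced from 4 control and 3 Klf13 knockout cultures. The authors trimmed reads with Trimmomatic 0.36, mapped them with STAR 2.5.2b and deposited counts of unique hits within exons per gene from featureCounts (Subread 1.5.2), without normalization. Annotation release and strand setting are not given in the sources used here. None of the 10 genes shared exon bases with another counted gene.

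Symbols came from a table with 48970 of the 49315 identifiers, and positions from the count files, in GRCm38. Counts were fitted in R 4.3.3 with edgeR 4.0.16 (filterByExpr by group, TMM factors, quasi-likelihood test with robust estimation, two-sided, with the group as the only term) and p-values were adjusted over 18352 genes. DESeq2 1.42.0, limma-voom (limma 3.58.1), other scalings and filters, a replicate block and leaving out each library were alternatives, and the ribosomal RNA share as a covariate was added after seeing the data. Fits were tested on simulated data. Replicates of a group differed beyond counting noise, with a chi-square per degree of freedom of 17.1 to 206. It was 17.1 between knockout replicates 1 and 3 and 23.5 between control replicates 1 and 4, against 80.3 to 206 for the other pairs. These libraries had 14.1% to 18.0% of their counts on the genes that collect ribosomal RNA reads, against 6.03% to 7.56% in the others. The part of this share in the differences was not tested. The tests reported were unpaired. As a check of pairing, deviations from the group means correlated over genes at 0.113, 0.463 and 0.168 between libraries with the same replicate number and at -0.529 to 0.197 between those with different numbers. The labels do not say what equal numbers share, and the block is given where it changes a call. Ratios used 0.5 added to each count.

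The 10 genes, the lists and the tests were chosen with earlier results of these data known. Named beside them were Klf13, 6 partner genes (Abhd5, G0s2, Lipe, Mgll, Ctdnep1 and Cnep1r1) and, per list, up to 2 genes with the lowest and up to 2 with the highest log2 fold change among those past the threshold. Ddhd2, Pcyt1a, Selenoi, Plin2, Gpat4 and further genes given without a call were named outside this rule.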

Additional observations from a re-analysis of the deposited data

Results flagged for a closer look

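In 7 of 37 named genes, 1 of the 4 control libraries stood apart from the other 3 by more than Dixon's 95% critical value, where chance gives about 1 in 20 groups. In control replicate 3, Lpin2 was high at 3110.2 normalised counts, Plin2 was high at 10603 and Fitm2 was low at 1241.3. In control replicate 4, Lclat1 was high at 2143, Pnpla3 at 2788, Acsl4 at 3134 and Etnk1 at 11538. Fibroblast and mural marker sums were also highest in these 2 libraries, and their part in these values was not tested. Of the 10 genes, Lpin2 was the only one with such a library in the controls, and its log2 fold change was 0.18 without it. The 3 knockout libraries are too few for this criterion.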

How the results depend on the processing

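Dgat2, Agpat4, Lpin1 and Gpam kept their direction and their side of the threshold in all 17 alternatives, with log2 fold changes of -1.55 to -1.34, -0.81 to -0.70, -0.60 to -0.46 and 0.44 to 0.56. Over the 37 named genes, 28 passed the test and 14 of these passed in every alternative. Those beside the 10 genes, Klf13 and the partner genes were named by their values, so that 28 of 37 partly restates this choice. The number of the 10 genes that rose was 1 instead of 2 with DESeq2's size factors, with total counts only, without the genes that collect ribosomal RNA reads, without a filter on low counts and with the replicate block, as Dgat1 no longer passed, and was 1 to 2 when single libraries were left out. The replicate block also ended the calls of Gpat3, Agpat5, Fitm2 and Cideb (given above), and changed no other call. Mboat1 (-0.63) had adjusted p-values of 0.0505, 0.066, 0.0611 and 0.0837 with upper quartile factors, total counts only, no filter and the ribosomal RNA covariate. Calls also ended with upper quartile factors for Agpat5 (0.0703), Fitm2 (0.0706) and Acsl4 (0.102), with total counts only for Agpat5 (0.123), Fitm2 (0.115) and Ptdss2 (0.0603), and without a filter for Gpat3 (0.0939), Agpat5 (0.061), Fitm2 (0.0707), Pnpla3 (0.0513), Acsl6 (0.0557) and Ptdss2 (0.08). Leaving out single libraries gave 1254 to 2032 genes lower, 850 to 1843 genes higher and 335 to 810 genes higher by at least 1 on the log2 scale, with 1254 and 1209 genes lower and higher without knockout replicate 1, and 1317 and 850 without knockout replicate 2, where also the count of 335 stood. Only genes that did not pass turned their sign. Mboat2 was at -0.038 with the covariate and at -0.043 to 0.12 without single libraries, Lpin2 at -0.0090 without the ribosomal RNA genes and at -0.098 to 0.18, Lipe at -0.014 without those genes, at -0.062 with the block and at -0.045 to 0.088, Cnep1r1 at 0.025 with upper quartile factors, at 0.029 with total counts and at -0.082 to 0.040, and Plin2 at 0.026 with limma-voom, at 0.063 with the covariate and at -0.38 to 0.41. The cause was not tested. A library left out leaves 3 against 3 or 4 against 2.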
